A study of Homo sapiens with 105 samples.

Results

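The genes described here are 42 human genes of mitosis and DNA replication, out of 63241 genes in the count table. They were chosen by name as a cell cycle module and not by their measured values, though with earlier results of these data known. They comprised 14 genes of DNA replication and nucleotide supply, 5 genes of G1 and S phase control, 9 genes of mitotic entry, 12 genes of the spindle, kinetochore, checkpoint and mitotic exit, and 2 general proliferation genes (MKI67 and TOP2A). All 42 had enough counts to be tested, among 19233 genes that did. Of these, NUSAP1 is given little weight, because its median count was 7 reads per library and 86.8% of its exonic bases are shared with 3 overlapping genes, among them OIP5 and OIP5-AS1, whose reads cannot be separated from it here.

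Caco-2, a line from a human colon adenocarcinoma that differentiates towards small intestinal enterocytes once confluent, was seeded in 48-well plates and treated 24 h later. The study asked how the cells respond to bacterial extracellular vesicles (BEVs) and to the RNA these carry, with total RNA sequenced after ribosomal RNA depletion. Membrane vesicles of Lacticaseibacillus casei (group LcMV, 1.5e+11 particles) and Enterococcus faecalis (EfMV, 7.5e+09 particles) and outer membrane vesicles of Proteus mirabilis (PmOMV, 6e+09 particles) were added to the medium, with PBS as the control. RNA from the vesicles was delivered with Lipofectamine (LcRNA, 100 ng, EfRNA, 5 ng, and PmRNA, 2 ng), with equal amounts of a non-targeting siRNA as controls (ANC100, ANC5 and ANC2). LPS from P. mirabilis was either put into the medium at 0.2 ng/µl (LPSinc, control PBS) or transfected at 1 ng/µl (LPStrans, control ANC2) as the labels give it, and the methods of the study give another volume unit, so the LPS dose is not certain. All 12 treatments were sampled at 10 and 24 h, and PBS, ANC100, LcMV and LcRNA also at 48 h, which makes 28 groups. Replicates carry the numbers 2 to 5 in the labels, which do not say whether a number stands for a culture or a day, so the p-values reflect the spread among these libraries, which may be technical.

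Of the sequenced libraries, 39 whose column names start with V350158887 and L02, L03 or L04, read here as a flow cell and its lanes, were set aside, and the other 66 were read here: 32 at 10 h, 26 at 24 h and 8 at 48 h. In 20 groups 2 libraries remained, in 6 groups 3 and in 2 groups 4. At 48 h the libraries set aside stood apart in the mitotic genes. The 23 mitotic genes (mitotic entry, spindle and proliferation classes) summed to 3934 to 4714 CPM (counts scaled to a library total of 1e+06) in the 8 libraries set aside that are labelled 48 h, but to 2930 to 3640 CPM in the 8 that were kept, without overlap. The replication sums overlapped at 48 h (1815 to 2142 CPM set aside, 1688 to 2228 CPM kept), as did the mitotic sums at 10 h (3579 to 4313 and 3458 to 4385 CPM) and 24 h (3194 to 4404 and 3760 to 4247 CPM). Total counts of the 66 libraries ran from 632659 to 8558755, with a median of 5563438. Of 11 epithelial markers, 9 had medians from 201 to 3319 CPM, while KRT20 was at 2.12 CPM and CDX1 at 0. Of 14 markers of immune, endothelial and fibroblast cells, 9 had medians under 1 CPM, and COL1A1 (33.8 CPM) and PDGFRA (19.9 CPM) were the highest.

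A dividing cell copies its DNA in S phase and separates the copies in mitosis, and each step has its own wave of transcripts. Genes of replication are switched on at the border of G1 and S phase by E2F factors, while genes of mitosis are switched on later, in G2, by the MuvB complex with MYBL2 and FOXM1 acting through CCAAT boxes and the cell cycle genes homology region (CHR). In the intestine, and in Caco-2 cells on reaching confluence, enterocytes leave the cell cycle as they differentiate, and both waves then decline.

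These elements were looked for in RefSeq promoter windows (GRCh38.p14, 250 bases before to 50 after each start), which matched 34 of the 42 genes and 27305 genes in all. The letters searched, on both strands, were CCAAT, a CHR written as TTTGAA or TTCGAA, and an E2F site written as TTGGCGC or TTCCCGC or TTCGCGC or TTGCCGC, where TTGGCGC and TTCGCGC can overlap their own reverse complements and TTGGCGC can overlap a CCAAT box. The E2F letters stood in 12 of 12 replication promoters (100%) and in 4 of 19 mitotic promoters (21.1%), with 15.3% over all genes. The CHR letters stood in 13 of 19 mitotic promoters (68.4%) and in 2 of 12 replication promoters (16.7%), with 19.5% over all genes. A CCAAT box was found in 16 of 19 mitotic (84.2%) and 9 of 12 replication promoters (75%), with 39.7% over all genes. These are matches of letters, not measured sites. Shown are the 150 bases before the start, read 5′ to 3′ on the gene's own strand with CCAAT boxes, CHR and E2F letters of either strand in capitals, for 3 mitotic genes that fell from 24 to 48 h (CDC20, PLK1 and CCNB1) and 3 genes of the S phase programme that fell from 10 to 24 h (CDC25A, MCM3 and UHRF1). CDC20, PLK1, CDC25A and MCM3 fell over both intervals.
CDC20 (chr1:43358831-43358980, plus strand): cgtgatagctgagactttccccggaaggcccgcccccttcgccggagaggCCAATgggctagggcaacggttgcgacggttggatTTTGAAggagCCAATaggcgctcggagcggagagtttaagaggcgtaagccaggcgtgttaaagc
PLK1 (chr16:23678739-23678888, plus strand): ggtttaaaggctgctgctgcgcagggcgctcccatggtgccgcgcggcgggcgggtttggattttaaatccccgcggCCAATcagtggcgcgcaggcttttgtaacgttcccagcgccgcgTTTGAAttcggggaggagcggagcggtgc
CCNB1 (chr5:69167000-69167149, plus strand): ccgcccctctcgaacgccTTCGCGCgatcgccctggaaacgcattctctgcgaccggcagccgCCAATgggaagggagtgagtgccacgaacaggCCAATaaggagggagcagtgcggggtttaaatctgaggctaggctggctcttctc
CDC25A (chr3:48188418-48188567, minus strand): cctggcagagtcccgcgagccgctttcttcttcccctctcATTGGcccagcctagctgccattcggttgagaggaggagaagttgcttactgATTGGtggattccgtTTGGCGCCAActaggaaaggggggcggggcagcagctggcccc
MCM3 (chr6:52284743-52284892, minus strand): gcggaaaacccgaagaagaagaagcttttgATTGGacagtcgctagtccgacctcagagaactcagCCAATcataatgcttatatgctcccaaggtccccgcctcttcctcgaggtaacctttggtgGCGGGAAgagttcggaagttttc
UHRF1 (chr19:4909351-4909500, plus strand): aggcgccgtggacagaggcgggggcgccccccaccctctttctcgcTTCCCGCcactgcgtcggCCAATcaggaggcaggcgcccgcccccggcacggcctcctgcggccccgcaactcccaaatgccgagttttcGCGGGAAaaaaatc

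The module was well expressed throughout. MKI67, the antigen read by the Ki-67 stain, had the highest level, with a median of 729 CPM (574 to 862 over the 66 libraries). Next came TOP2A, the topoisomerase that untangles sister chromatids, at 426 CPM. Per kilobase of exon, which allows genes to be compared, the highest levels were those of MYBL2, a partner of the MuvB complex, at 105.1 CPM per kb, TPX2, an activator of Aurora A on the spindle, at 79.4 CPM per kb, and CCNB1, cyclin B1 of mitotic entry, at 73.9 CPM per kb. NUSAP1 aside, the lowest were CCNE2 (cyclin E2) at 2.83 CPM per kb, with 37.1% of its exonic bases shared with other genes, and the kinetochore motor CENPE at 5.42 CPM per kb. In bulk RNA, fewer cycling cells and less of a transcript in each cell cannot be told apart, which holds for each difference given here.

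The 23 mitotic genes summed to a median of 3998 CPM at 10 h (3458 to 4385), 3937 CPM at 24 h (3760 to 4247) and 3289 CPM at 48 h (2930 to 3640). Every kept 48 h library thus lay below every kept 24 h library. This did not hold for the 8 libraries set aside that are labelled 48 h (3934 to 4714 CPM). The 14 replication genes summed to 2153 CPM at 10 h (2005 to 2371), 2064 CPM at 24 h (1870 to 2306) and 1903 CPM at 48 h (1688 to 2228), and here the ranges overlapped at every step.

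**Figure D1:**
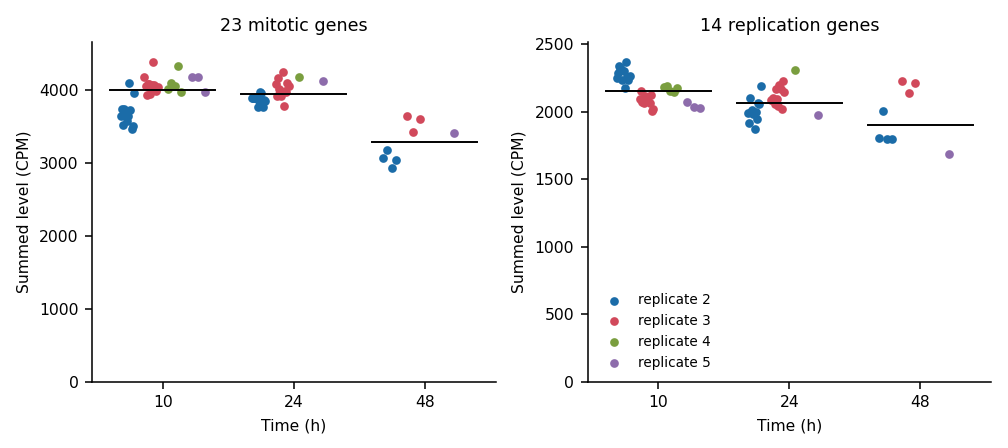
Summed level, in CPM, of the mitotic and the replication genes in each of the 66 libraries against sampling time (h), coloured by replicate number, with a black line at the median of each time. The mitotic sums of the 8 libraries at 48 h (2930 to 3640 CPM) lay below all 26 at 24 h (3760 to 4247 CPM), while the replication sums overlapped between times.

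From 10 to 24 h more genes of replication and G1/S control fell than rose, while mitotic genes moved both ways. As an average over the 12 treatments, 23 of 42 genes passed (9 higher and 14 lower, edgeR quasi-likelihood test with Benjamini-Hochberg adjustment), a share close to the 53.5% of all genes tested that passed in this comparison. Their median log2 fold change was -0.03 and that of all genes was 0.03. Of the 14 replication genes, 6 fell and 1 rose, and of the 5 genes of G1 and S phase control, 3 fell and none rose. Of the 12 spindle genes 5 rose and 3 fell, of the 9 genes of mitotic entry 2 rose and 2 fell, and TOP2A rose. In replicate 3, as read from a fit of all 66 libraries described below, 4 replication genes rose and 4 fell, and 5 mitotic genes rose and 8 fell.

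CDC25A, the phosphatase that frees CDK2 for entry into S phase, had 49.5 to 77.2 CPM at 10 h (median 65.8) and 32.1 to 57.5 CPM at 24 h (median 47.7). The ranges overlapped, but the 24 h median lay under the lowest 10 h library, and the log2 fold change was -0.47 (SE 0.03, adjusted p = 4.43e-21). CCNE1 (cyclin E1), partner of CDK2, fell by 0.38 (SE 0.05, adjusted p = 5.7e-10), and MCM3, a subunit of the replicative helicase, fell by 0.24 (SE 0.03, adjusted p = 4.81e-09) on the log2 scale. Further falls were those of the helicase subunits MCM7 (-0.18), MCM4 (-0.16) and MCM6 (-0.05), the helicase loader CDC6 (-0.22), UHRF1, which reads hemimethylated DNA behind the fork (-0.18), and CCNE2 (-0.17). Among mitotic genes CDC20, the activator of the anaphase-promoting complex, fell by 0.23, MYBL2 by 0.16, the checkpoint protein BUB1B by 0.14 and the mitotic kinase PLK1 by 0.11. KIF23, a kinesin of the midbody, fell by 0.09. With the replicate block within each time, KIF23 was at 0.00 in replicate 2 and at -0.18 in replicate 3.

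The rises were led by genes that act at the G2/M border. CDC25C, the phosphatase that activates CDK1, had 14.5 to 29.9 CPM at 10 h (median 21.1) and 24.7 to 39.8 CPM at 24 h (median 29.8), a log2 fold change of 0.50 (SE 0.04, adjusted p = 7.67e-17). CCNB2 (cyclin B2) went from a median of 52.0 CPM (40.4 to 63.5) to 65.8 CPM (54.0 to 74.4), up by 0.35 (SE 0.03, adjusted p = 3.16e-17). KIF11, the kinesin that pushes spindle poles apart, rose by 0.29 and KIF20A, a kinesin of cytokinesis, by 0.24. Smaller rises were those of TOP2A (0.17), the kinetochore protein CENPF (0.16), RRM1, the large subunit of ribonucleotide reductase (0.14), the survivin gene BIRC5 (0.12) and TPX2 (0.06). Not all cyclins moved alike, since CCNA2 was at 0.01 and CCNB1 at -0.05 and neither passed.

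The pattern extended to pathway genes outside the 42. Of 38 further replication genes, 20 fell and 3 rose (median -0.10), with MCM10 at -0.44 and CLSPN, a mediator of the replication checkpoint, at -0.43. Of 53 further mitotic genes, 27 rose and 11 fell (median 0.10), led by the condensin subunit NCAPD2 (0.41), GAS2L3 (0.40) and the spindle protein ASPM (0.36). Over all genes, 30.2% rose and 23.4% fell.

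From 24 to 48 h the mitotic genes fell together. On average over the 4 treatments sampled at 48 h, 28 genes fell and 1 rose, 29 of 42 in all, where 42.2% of all genes passed, 19% lower and 23.2% higher. The median log2 fold change was -0.17 for the 42 genes and 0.04 for all genes. Of the 12 spindle genes 11 fell, NUSAP1 being the exception, 7 of 9 genes of mitotic entry fell, and MKI67 and TOP2A both fell. Of the 14 replication genes 7 fell and 1 rose, and 1 of 5 genes of G1 and S phase control fell. With the 39 libraries set aside added back, this comparison gave 4 genes with the replicate number as a block (8.83% of all genes) and 1 without (2.54%), so these calls hold for the 66 libraries only.

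CDC20 had 80.4 to 115 CPM at 24 h (median 92.4) and 56.3 to 63.4 CPM at 48 h (median 60.2). No 48 h library reached the lowest 24 h library, and the log2 fold change was -0.63 (SE 0.05, adjusted p = 5.42e-21). CCNB1 went from 167 to 198 CPM (median 180) to 112 to 137 CPM (median 121), again without overlap, and fell by 0.57 (SE 0.04, adjusted p = 2.33e-19). PLK1 went from 134 to 184 CPM (median 161) to 108 to 141 CPM (median 122), with overlap, and fell by 0.40 (SE 0.04, adjusted p = 2.6e-14). KIF20A fell by 0.42, BIRC5 by 0.41, the checkpoint kinase BUB1 by 0.40, KIF23 by 0.35, TPX2 by 0.34, CENPF and CCNA2 by 0.33, and CENPE and CDC25A by 0.31. CDC20, PLK1, KIF23 and CDC25A had already fallen by 24 h, while KIF20A, BIRC5, TPX2, CENPF, CCNB2, KIF11, TOP2A and RRM1 fell after having risen.

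CDT1, which licenses origins in G1 and is degraded when S phase begins, was the single gene that rose, with 132 to 198 CPM at 24 h (median 156) and 136 to 249 CPM at 48 h (median 185). The ranges overlapped, and the log2 fold change was 0.33 (SE 0.08, adjusted p = 0.000656). In the promoter set, genes without E2F letters had a median of -0.29 over 16 genes and genes with them -0.10 over 18, and genes with CHR letters had -0.20 over 15 and genes without them -0.15 over 19, which is a description of genes that share all their libraries.

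**Figure D2:**
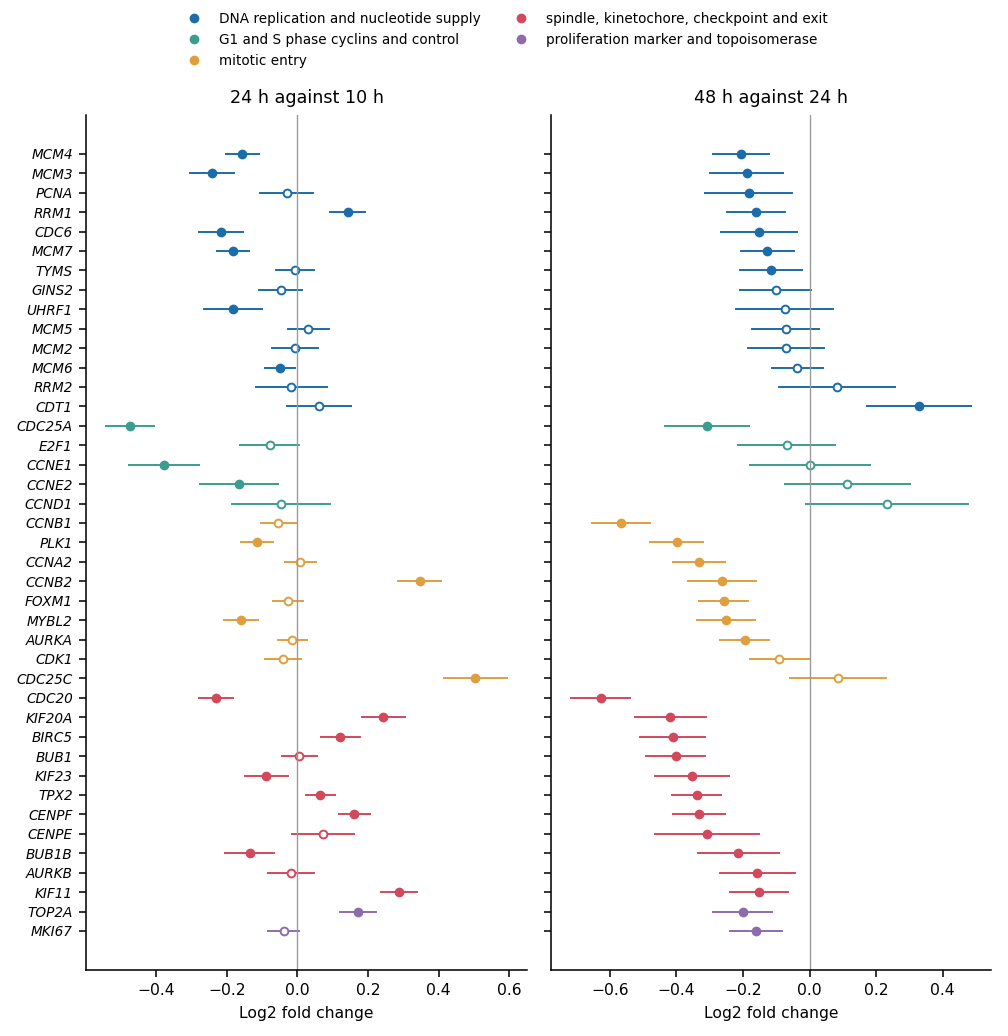
Log2 fold change with 95% interval of each gene between sampling times, by functional class, with filled points for an adjusted p under 0.05 and NUSAP1 left out. Between 24 and 48 h 28 genes lay lower and CDT1 alone higher among those that passed, whereas between 10 and 24 h 9 rose and 14 fell.

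Over the same interval, of 53 further mitotic genes 35 fell and 1 rose (median -0.20), with PTTG1 (securin) at -0.42 and CENPA, the centromeric histone, at -0.41, and of 38 further replication genes 13 fell and 1 rose. Among 10 G1 regulators 7 fell and 1 rose, with CCND2 at -0.70, CDK6 at -0.57, CDC25B at -0.55, MYCN at -0.54 and MYC at -0.53. Among 25 genes that restrain the cycle 8 rose and 2 fell, a share under the 42.2% of all genes, and the CDK inhibitor CDKN1A went from a median of 5.23 CPM at 24 h (2.89 to 8.10) to 16.2 CPM at 48 h (10.3 to 22.9), up by 1.51 (SE 0.15, adjusted p = 1.36e-12). CCNG2, a cyclin of arrested cells, rose by 1.11 from 10 to 24 h and by 1.00 from 24 to 48 h. Of 15 measured enterocyte genes 11 rose and 1 fell from 24 to 48 h, among them ANPEP (aminopeptidase N, 1.70), APOA4 (1.77) and LCT (lactase, 1.30). The summed level of the 14 markers of other cell types moved in the same direction, from a median of 61.7 CPM at 10 h (44.8 to 89.8) to 78.9 CPM at 24 h (59.5 to 103.8) and 95.3 CPM at 48 h (84.2 to 111). PTPRC, CDH5, KDR, COL1A2 and DCN were among those with medians of 0, and the part of these markers in the differences with time was not tested.

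The course over time was not the same in replicates 2 and 3, the 2 numbers with libraries in nearly every group. At 10 h the replication genes summed to 2176 to 2371 CPM in the 12 libraries of replicate 2 and to 2005 to 2153 CPM in the 12 of replicate 3, without overlap. The mitotic genes ran the other way at that time, at 3458 to 4088 CPM in replicate 2 (median 3669) and 3932 to 4385 CPM in replicate 3 (median 4058), with some overlap. At 24 h both sums overlapped between the replicates, with medians of 1998 and 2098 CPM for replication and of 3884 and 3992 CPM for mitosis. Replicate 2 was thus the higher in replication transcripts and, by its median, the lower in mitotic transcripts at 10 h, and by 24 h neither sum separated the replicates.

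A fit with the replicate number as a block within each time gives the course in each replicate and tests the difference. All kept libraries enter this fit, and a treatment is taken to act alike in each replicate number. From 10 to 24 h, 32 of 42 genes passed in replicate 2 (12 higher and 20 lower, 50.3% of all genes passing) and 24 in replicate 3 (10 higher and 14 lower, 36% of all genes). The change differed between the replicates for 27 of 42 genes, where 13.9% of all genes passed. It was the more positive in replicate 3 for 11 of 14 replication genes and the more negative for 1 (RRM1), and the more negative for 11 of 23 mitotic genes and the more positive for 1 (MYBL2). By column names, most kept libraries of replicate 3 came from V350158887 at 24 h but from the other flow cell at 10 h. Most of replicate 2 came from that other flow cell at both times, and the part of flow cell in these differences was not tested.

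CDT1 fell by 0.15 in replicate 2 and rose by 0.29 in replicate 3. RRM2, the small subunit of ribonucleotide reductase, changed by -0.15 and 0.11, and MCM2 by -0.16 and 0.12. UHRF1 fell by 0.37 in replicate 2 and was at 0.00 in replicate 3. Among mitotic genes TOP2A rose by 0.31 in replicate 2 and was at 0.04 in replicate 3, KIF20A rose by 0.40 and 0.09, and CCNB1 was at 0.07 and -0.16. In all, 7 genes passed in both replicates with opposite signs (MCM2, MCM5, CDT1, RRM2, CCND1, CCNB1 and BUB1). Those that passed in the same direction in both were CDC6, MCM3, MCM4, MCM7, CCNE1, CDC25A, MYBL2, CDC20 and PLK1, which fell, and CCNB2, CDC25C, KIF11, KIF20A and CENPF, which rose. The average over replicates given above is therefore shared by 14 genes.

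From 24 to 48 h the replicates differed less in direction. In replicate 2, 30 genes passed (1 higher and 29 lower, 38.2% of all genes), and in replicate 3 18 passed (4 higher and 14 lower, 27.8% of all genes). The change differed for 13 of 42 genes, each the less negative or more positive in replicate 3, where 6.25% of all genes passed. Called lower in both were 14 genes, 13 of them mitotic (AURKA, TPX2, BIRC5, MYBL2, FOXM1, KIF20A, CDC20, CENPF, CCNB1, CCNA2, CCNB2, PLK1 and BUB1) and MCM4. CDT1 rose in both, and no gene passed with opposite signs. The share of all genes that passed in both replicates was not counted for this interval either. CDC20 fell by 0.59 in replicate 2 and by 0.66 in replicate 3. No PBS library of replicate 3 was kept at 48 h. For PBS the replicate 3 change thus rests on treatments acting alike in each replicate number.

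CCND1 (cyclin D1), which carries growth signals into G1, differed most. At 24 h it had 222 to 314 CPM in the 12 libraries of replicate 2 and 330 to 436 CPM in the 12 of replicate 3. At 48 h it had 223 to 390 CPM in the 4 libraries of replicate 2, 575 to 624 CPM in the 3 of replicate 3 and 273 CPM in the PBS library of replicate 5. The change from 24 to 48 h was -0.03 in replicate 2 and 0.55 in replicate 3, a difference of 0.57 (SE 0.11, adjusted p = 0.000711). RRM2 followed, at -0.10 and 0.43 with a difference of 0.53 (SE 0.07, adjusted p = 3.23e-08), and CENPE at -0.48 and -0.04 with a difference of 0.44 (SE 0.13, adjusted p = 0.0309). By their column names, all kept libraries of replicate 3 at 48 h came from lane 4 of the flow cell other than V350158887. That lane held no kept library of replicate 2 at 48 h and none of replicate 3 at 24 h, so lane cannot be told apart from these differences.

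**Figure D3:**
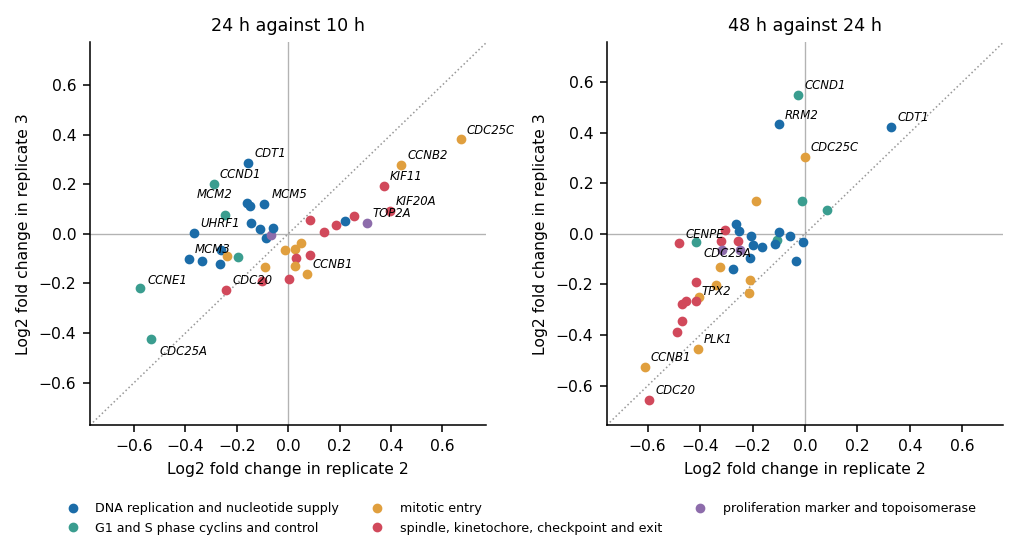
Log2 fold change with time in replicate 2 (horizontal axis) against replicate 3 (vertical axis) for each gene except NUSAP1, coloured by functional class, with equal change on the dotted line. From 10 to 24 h most replication genes lay above the line (CDT1 at -0.15 and 0.29, but RRM1 below it at 0.22 and 0.05) and many spindle genes below it, and from 24 to 48 h CDC20, CCNB1 and PLK1 lay near the line at the lower left.

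Averaged over all groups, replicates 3 and 2 differed in 29 of 42 genes (23 higher and 6 lower in replicate 3), where 61.5% of all genes passed, 28.9% higher and 32.6% lower. MYBL2 stood out, with 229 to 274 CPM in replicate 2 and 345 to 402 CPM in replicate 3 at 10 h. The ranges did not overlap at 24 h (201 to 223 against 321 to 397 CPM) or at 48 h (160 to 177 against 310 to 353 CPM) either, and MYBL2 was higher by 0.73 (SE 0.02, adjusted p = 1.78e-39). E2F1, the activator of the G1/S genes, was higher by 0.31, KIF20A by 0.30, CDC25C by 0.29 and CDK1, the mitotic kinase, by 0.24. Lower in replicate 3 were MCM6 (-0.32), AURKB (Aurora B, -0.31), MCM7 (-0.28), PLK1 (-0.18), BUB1 (-0.13) and FOXM1 (-0.06).

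For many genes the sign of these differences was that of their chromosome's median. Chromosome medians over all tested genes ran from -0.38 to 0.27 between the replicates, with an SD of 0.15 over 23 chromosomes. In the comparisons of time they ran only from -0.01 to 0.07 (24 against 10 h) and from 0.02 to 0.07 (48 against 24 h). Of the 42 genes, 33 had the sign of the median of their chromosome's genes outside the 42 (24 of the 29 that passed). Most genes of any chromosome share its median's sign by definition, so this count does not set the 42 apart. Of all tested genes, 75.2% were higher in replicate 3 on chromosome 20, 35.0% on chromosome 17, 28.3% on chromosome 11 and 19.8% on chromosome 7. Other chromosomes were nearer even, such as 1 (55.1%), 16 (54.9%), 3 (53.2%) and 9 (45.2%). Pearson's r across the 42 genes was 0.59, given as a description because genes of a chromosome share 1 median. On chromosome 20, with a median of 0.17, PCNA (0.15), AURKA (0.20), TPX2 (0.20), E2F1 (0.31) and MYBL2 (0.73) were all higher. On chromosome 17, with a median of -0.10, AURKB was at -0.31, and on chromosome 7, with a median of -0.18, MCM7 was at -0.28. CCND1 went against chromosome 11, at 0.37 where the median was -0.12. RRM1, RRM2, TYMS, UHRF1, CENPE, PLK1, GINS2 and CCNB2 also went against the sign of their chromosome. MYBL2 and CCND1 also lay the farthest above their chromosome's median, by 0.56 and 0.48.

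**Figure D4:**
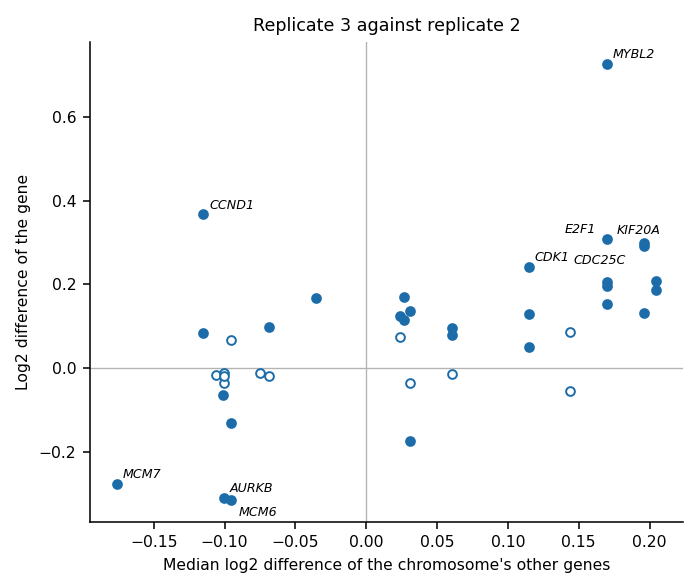
Log2 fold change of each gene except NUSAP1 between replicates 3 and 2 (vertical axis) against the median of the tested genes outside the 42 on its chromosome (horizontal axis), with filled points for an adjusted p under 0.05. MYBL2 (0.73) and CCND1 (0.37) lay highest, and the medians of the chromosomes that hold these genes ran from -0.18 to 0.20.

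Treatment changed few of these genes. In 36 comparisons of a treatment with its control, with LPS, with another species or of lipofection with PBS, 1 or more of the 42 genes passed in 3, all of them with PmOMV at 10 h. The comparisons share control and vesicle libraries and are not independent of each other. In the other 33 none passed by edgeR's quasi-likelihood test, while 0 to 7 genes per comparison had an unadjusted p under 0.05, and DESeq2 called genes in 2 of these 33. The median log2 fold change of the 42 genes lay between -0.08 and 0.09 in all 36, with median standard errors from 0.07 to 0.12. In each comparison, 32 to 41 of the 42 genes had a 95% interval that lay within 0.5 of 0 on the log2 scale.

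**Figure D5:**
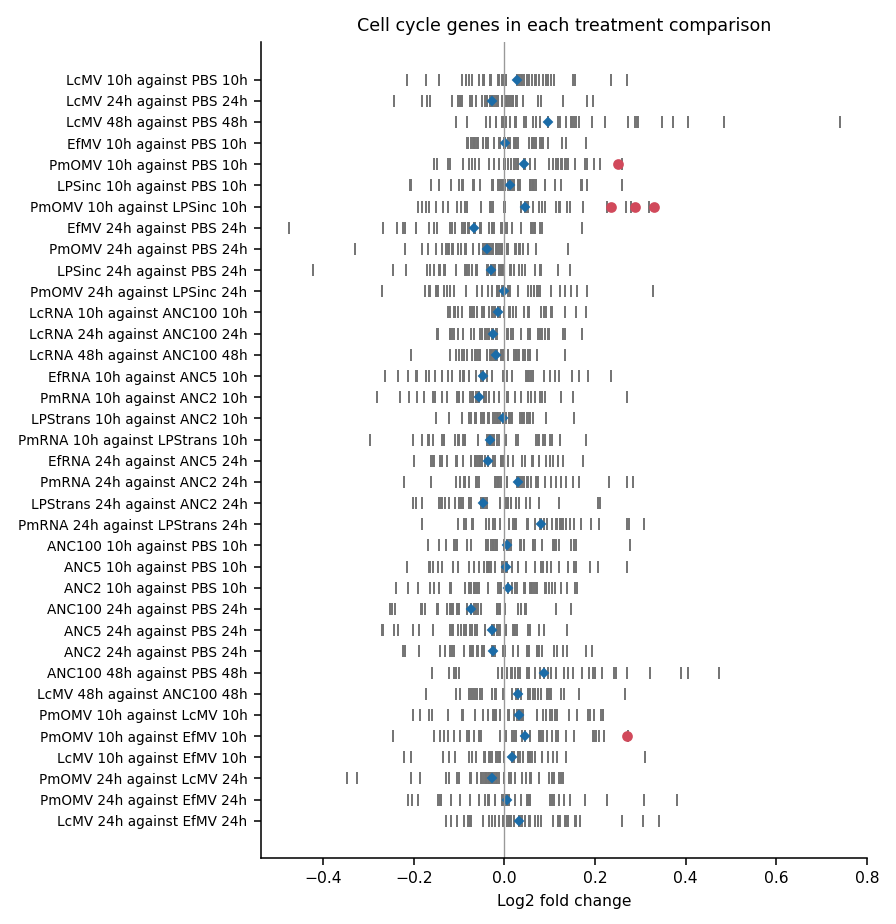
Log2 fold change of each gene except NUSAP1 (grey ticks) in the 36 treatment comparisons, with the median as a blue diamond and genes that passed as red circles. Medians lay between -0.08 and 0.09, and red circles occur for PmOMV at 10 h alone.

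At 10 h the mitotic kinase genes AURKA and PLK1 and the checkpoint kinase gene BUB1 were higher with PmOMV than with 1 or more of its references. AURKA (Aurora A, which builds the spindle poles) had 169, 195 and 182 CPM in replicates 2, 3 and 4 of PmOMV. It had 148 and 156 CPM with PBS, 141 and 165 CPM with LPSinc and 137 and 173 CPM with EfMV in replicates 2 and 3, and 137, 175 and 164 CPM with LcMV in replicates 2 to 4. Within each replicate number PmOMV was the highest of these groups, though its replicate 2 lay under EfMV and LcMV of replicate 3. Against PBS the log2 fold change was 0.25 (SE 0.07, adjusted p = 0.0495), with 1 of 42 genes passing and 1.09% of all genes.

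PLK1 had 223, 196 and 185 CPM with PmOMV in replicates 2 to 4. The values in replicates 2 and 3 were 191 and 155 CPM with PBS, 180 and 156 CPM with LPSinc and 175 and 165 CPM with EfMV, and with LcMV they were 187, 167 and 166 CPM. PmOMV again led in each replicate number. Against EfMV PLK1 was the single gene that passed, at 0.27 (SE 0.07, adjusted p = 0.0406), with 0.879% of all genes, and against PBS it was at 0.26 (SE 0.07, adjusted p = 0.0539).

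BUB1 had 130, 120 and 117 CPM with PmOMV in replicates 2 to 4, and 112 and 103.4 CPM with PBS, 105.4 and 93.2 CPM with LPSinc, 111 and 95.4 CPM with EfMV and 108, 104.3 and 103.1 CPM with LcMV. These 3 PmOMV libraries lay above all 9 others. Against LPSinc 3 genes passed (BUB1, PLK1 and AURKA, adjusted p = 0.00695, 0.0091 and 0.0286), where 3.15% of all genes did. Against LcMV none passed by edgeR (6 at an unadjusted p under 0.05, 1 by DESeq2, 0.442% of all genes), with PLK1 at 0.22 (SE 0.06, adjusted p = 0.123), AURKA at 0.20 (SE 0.06, adjusted p = 0.139) and BUB1 at 0.22 (SE 0.07, adjusted p = 0.218).

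These calls could be lost when 1 library was left out. A group of 2 then holds 1 library, which is taken to vary like the other groups. Without replicate 2 or replicate 3 of LPSinc no gene passed against LPSinc, and without replicate 2 of PmOMV 1 gene did. No gene passed against PBS without replicate 2 or 3 of PmOMV or of PBS, or against EfMV without replicate 2 or 3 of PmOMV or of EfMV. Without replicate 4 of PmOMV, AURKA no longer passed against PBS by edgeR (adjusted p = 0.0535), while PLK1 did (adjusted p = 0.0404). In these fits the log2 fold change ran from 0.18 to 0.30 for AURKA against PBS, from 0.22 to 0.32 for PLK1 against EfMV and from 0.31 to 0.35 for BUB1 against LPSinc. These 3 genes were picked by their p-values in the same libraries. The kept sign and the rankings by library above are therefore a description and no added support. With the 39 libraries added back, or without the replicate block, none passed in any of these comparisons, and with the block within each time 2 genes passed against PBS (3.66% of all genes), 8 against LPSinc (7.78%), 3 against LcMV (1.3%) and 4 against EfMV (3.4%).

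At 24 h none of the 42 genes passed for PmOMV against PBS (1 gene at an unadjusted p under 0.05, 0 by DESeq2, 0.109% of all genes). Nor did any pass at 24 h for PmOMV against LPSinc (0.151% of all genes), LcMV (0.0676%) or EfMV (0.052%), with 0 to 3 genes at an unadjusted p under 0.05 and 0 by DESeq2. The change of the PmOMV effect from 10 to 24 h was -0.39 for AURKA (SE 0.10, adjusted p = 0.307) and -0.30 for PLK1 (SE 0.11, adjusted p = 0.622). None of the 42 genes passed for this contrast by edgeR or DESeq2, 3 had an unadjusted p under 0.05, and 0.0312% of all genes passed. With the block within each time AURKA passed, at -0.40 (SE 0.09, adjusted p = 0.0238).

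LcMV, which was given over all 3 times, changed none of the 42 genes by the test. Against PBS, 0.0468% of all genes passed at 10 h, 0.0052% at 24 h and 2.7% at 48 h. Against EfMV, 0.0052% of all genes passed at 10 h and 0.0104% at 24 h, and none of the 42 (2 and 0 genes at an unadjusted p under 0.05, 0 by DESeq2). At 48 h 7 of the 42 had an unadjusted p under 0.05, with MCM7 at 0.27 (SE 0.09, adjusted p = 0.0617), MCM3 at 0.37 (SE 0.12, adjusted p = 0.0682) and CDT1 at 0.48 (SE 0.16, adjusted p = 0.1). DESeq2 called 2 of them, MCM3 and CDT1. The lipofected control ANC100 against the same PBS libraries, where none passed (4 at an unadjusted p under 0.05, 0 by DESeq2, 0.25% of all genes), gave 0.27 for MYBL2 (SE 0.09, adjusted p = 0.219), 0.41 for CDT1 (SE 0.16, adjusted p = 0.341) and 0.25 for MCM3 (SE 0.12, adjusted p = 0.444). Both rest on PBS at 48 h, of which replicates 2 and 5 were kept, where the other groups kept 2 and 3. LcMV against ANC100 at 48 h gave no gene at an unadjusted p under 0.05, none by edgeR or DESeq2, and 0.0156% of all genes.

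Vesicle RNA, LPS and EfMV left the module without a call. For LcRNA, EfRNA, PmRNA and LPStrans against the matching siRNA, and for EfMV and LPSinc against PBS, none of the 42 passed by edgeR or by DESeq2 and 0% of all genes did, while 0 to 4 of the 42 had an unadjusted p under 0.05. The lowest adjusted p among the RNA treatments was that of EfRNA at 10 h, where CCNB1 was at -0.26 (SE 0.09, adjusted p = 0.618) and TOP2A at -0.24 (SE 0.09, adjusted p = 0.713). With standard errors of this size, a p that misses the threshold does not show that the levels were equal.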

How the data were processed

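Per the labels, the authors used STAR for alignment to GRCh38 and featureCounts for counting. The annotation and the strand setting are not given in the sources used here. The deposited values are raw counts, whole numbers of reads per gene for each library. Gene IDs were matched to symbols exactly for 62030 of 63241 genes, and for 62666 with the version left aside.

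The members, lists, tests and the choice of 66 libraries were made with earlier results of these data known. Genes were kept by filterByExpr (19233), library sizes scaled by TMM, and 1 fit of group and replicate number made with edgeR 4.0.16 in R 4.3.3 (glmQLFit, robust, dispersion trend, BCV 0.0622). Genes passed at a two-sided p under 0.05 after Benjamini-Hochberg adjustment over all genes tested in that comparison. Intervals are 95%. CPM used TMM-scaled sizes. Promoter windows came from RefSeq tables. Genes were named as the 10 highest and 10 lowest that passed, or the 3 smallest p-values where fewer than 3 passed, and others after their values were seen.

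Same-numbered libraries deviated together in all 34 comparisons with shared numbers (correlations from 0.235, median 0.467), which rests on the data and not on the labels. With 2 libraries in most groups, counting error is small for most genes and precision is limited by library number. Alternatives were DESeq2 1.42.0, RLE size factors, no filter, no block, the block within each time, a lane term, all libraries of the series, and leaving out each replicate. The fit was tested on simulated data.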

Additional observations from a re-analysis of the deposited data

Results flagged for a closer look

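The change with time differed between replicate 3 and replicate 2 for 27 of the 42 genes from 10 to 24 h and for 13 from 24 to 48 h, as tested by the difference itself in the edgeR fit with the replicate block within each time (Benjamini-Hochberg adjusted p under 0.05). Replicate numbers are not a condition of the study, and the part of culture, density or handling in this difference was not tested. From 24 to 48 h the difference also cannot be told apart from sequencing lane, which replicates 2 and 3 did not share at 48 h. From 10 to 24 h most kept libraries of replicate 3 changed flow cell, while most of replicate 2 did not, and the part of this was not tested.

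From 10 to 24 h the log2 fold change was higher in replicate 3 than in replicate 2 by 0.49 for CCND1, 0.44 for CDT1, 0.37 for UHRF1, 0.36 for CCNE1 and 0.32 for E2F1, genes of G1 and S phase. It was lower in replicate 3 for genes of G2 and mitosis, with differences of -0.30 for KIF20A, -0.29 for CDC25C, -0.26 for TOP2A, -0.23 for CCNB1 and -0.19 for KIF23. From 24 to 48 h the differences were 0.57 for CCND1, 0.53 for RRM2, 0.44 for CENPE, 0.39 for CDC25A and 0.32 for AURKB. Among 24 checks of 12 genes in the 2 groups of 4 libraries (ANC100 and LcRNA at 10 h), no library lay apart from its group. With 4 values such a check has little power, and it does not cover the other groups or times.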

How the results depend on the processing

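The counts of genes that passed depended most on which libraries were read. With the 39 libraries added back and the replicate block, 4 genes passed from 24 to 48 h and 0 for PmOMV at 10 h against PBS, LPSinc or EfMV. With them added back and no replicate block, 12 passed from 10 to 24 h (3 higher), 1 from 24 to 48 h and 0 in these PmOMV comparisons. The 66 libraries without the replicate block gave 0 for PmOMV against PBS, LPSinc and EfMV. With the replicate block within each time, PmOMV gave 2 against PBS, 8 against LPSinc, 3 against LcMV and 4 against EfMV, and the change of an effect from 10 to 24 h gave 1. Read in replicate 3, an alternative chosen after seeing the data, the same fit gave 18 from 24 to 48 h. DESeq2 gave 2 for PmOMV against PBS, 1 against LcMV, 2 against EfMV, and 2 for LcMV against PBS at 48 h. A lane term beside the block gave 2, 5, 1 and 3 for PmOMV against PBS, LPSinc, LcMV and EfMV. RLE size factors gave 0 for PmOMV against PBS. Without the filter on low counts, PmOMV gave 0 against PBS and EfMV, and LcMV gave 2 against PBS at 48 h. Replicates 2 and 3 alone gave 0 for PmOMV against PBS and EfMV. Leaving out 1 library gave 0 to 1 for PmOMV against PBS, 0 to 4 against LPSinc, 0 to 1 against EfMV, and 0 to 3 for ANC100 against PBS at 48 h. The cause was not tested.

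The 51 results chosen by the naming rule kept their sign in the alternatives that give them, other than leave-outs, where single genes were recomputed only in part. Fits with no block, or with the block within each time, give 35 of the 51, without those of replicate 3 against replicate 2. In the fit with the block within each time, the changes with time are those of replicate 2. Of other genes that passed, KIF23 from 10 to 24 h lost its sign in replicate 2 (0.00) but not in replicate 3 (-0.18), with the block within each time. KIF11 from 24 to 48 h lost its sign with the 39 libraries added back (0.00 and 0.01, with and without the block). Read in replicate 3, so did MCM6 (0.02) and UHRF1 (0.00) from 10 to 24 h and RRM1 (0.04), PCNA (0.01) and AURKB (0.01) from 24 to 48 h. With the 39 libraries added back and the block 20 of 51 named results no longer passed. With them added back and no block, 23 of 35 no longer passed. Leaving out a replicate number gave 22 to 29 from 10 to 24 h and 20 to 31 from 24 to 48 h. At 48 h replicate 5 is known from 1 library only, and 2 libraries in most groups limit what a treatment comparison can show.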

Other observations

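Genes that restrain the cycle moved both ways by 24 h. From 10 to 24 h 13 of 25 genes that restrain the cycle rose and 4 fell by the edgeR test, where 53.5% of all genes passed. CDKN1C was at 0.93, CDKN2C at 0.84, CDKN1A at 0.43 and RBL2, the pocket protein p130, at 0.37, while E2F4 was at -0.46 and GADD45B at -0.45. Levels of CDKN1C (medians of 1.08 CPM at 10 h and 2.13 CPM at 24 h) and CDKN2C (1.22 and 2.38 CPM) were low. Of 15 measured enterocyte genes 9 rose and 4 fell over this interval, with SI (sucrase-isomaltase) at 0.97 and LCT at 0.74, and CEACAM5 at -1.77 and KRT20 at -0.80. KRT20 was low too, with medians of 3.57 CPM at 10 h and 1.80 CPM at 24 h.

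Across the 66 libraries, pairs of mitotic genes had a median Pearson's r of 0.37 on log2 CPM, pairs of replication genes 0.28 and pairs of the 2 classes 0.09. After the means of each time and replicate number were taken off, which leaves 63 libraries, the medians were 0.19, 0.17 and 0.01. The closest pairs were MCM4 with MYBL2 (0.86), MCM3 with CDC25A (0.84) and CCNB1 with CDC20 (0.84), and the last fell to 0.04 after the means were taken off. Genes outside the lists whose level was closest to the mean of the 42 were CSE1L (0.90), TUBB (0.89), COTL1 and PPT1 (0.88), and those closest to the mean of the 23 mitotic genes were ABCD3 (0.86) and CAB39L (0.84). These values describe libraries that share time, replicate number and depth.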
